A study of Mus musculus with 30 samples.

Results

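The AP-1 family was followed through sorted mouse CD4 T cells by its Fos members (Fos, Fosb, Fosl1, Fosl2), its Jun members (Jun, Junb, Jund) and the related factors Batf, Batf3 and Atf3. These 10 genes were taken by symbol, out of 55573 gene identifiers counted by 3' QuantSeq and 34002 genes counted by RNA-seq. All 10 matched in both kits. The filter on low counts left 7 of them for testing in QuantSeq and all 10 in RNA-seq. In QuantSeq the 3 that did not pass were Fosl1, Batf3 and Atf3.

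T helper cells were sorted from spleens of C57BL/6 mice 8 weeks old, and 10 ng of RNA entered each of 30 libraries. In QuantSeq, a kit that reads the 3' ends of transcripts, every group carried the OTII transgene, a T cell receptor transgene. TH2 cells came from IL-4BacTg x OTII mice and were gated as CD4+hCD2+ (n = 4). Cells labelled TFH (T follicular helper) came from OTII Tg mice and were gated as CD4+CD45.2+PD1+ with CXCR5 high (n = 3), intermediate (n = 2) or low (n = 3). Cells labelled TFH2 came from IL-4BacTg x OTII mice through the same 3 gates (n = 2 each). Bcl6KO cells were CD4+hCD2+ cells of Bcl6f/fCd4cre x OTII mice (n = 2), in which Cre is driven by Cd4 and so acts in T cells. Il4KO cells were CD4+ cells of Il4-/- x OTII mice (n = 2), with no further gate named. RNA-seq held 3 groups of 2 libraries each. Naive cells were gated as CD4+CD62L+CD44-CD25- in wild type mice, TH2 cells as CD4+hCD2+ in IL-4BacTg mice and TFH CXCR5hi cells as CD4+CD45.2+CXCR5hi PD1+ in OTII Tg mice. It also held 1 library labelled TH2 and 1 labelled TFH2 CXCR5hi, both from IL-4BacTg x OTII mice. No label names an immunisation, an animal or a batch. Whether libraries of a group are separate animals is thus unknown, and each p-value is set against a spread that may be only technical. It is also unknown whether CXCR5 gates of a genotype share animals, so libraries pooled over gates may not be independent.

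AP-1 is a dimer of basic leucine zipper (bZIP) proteins. Fos proteins bind DNA as partners of Jun proteins, whereas Jun proteins can also pair with each other. T cell receptor signalling raises Fos and Jun transcripts within minutes through MAP kinases, and the same transcripts are known to respond to the handling of tissue. AP-1 sits beside NFAT at composite sites of cytokine genes, and Batf pairs with Jun proteins beside Irf4. Batf is needed for the formation of TFH cells, and Junb is known as an activator of Il4 in TH2 cells. Atf3 is a stress-induced member of the wider family.

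The promoters of the 4 members below are shown because Fos, Fosb and Junb stood apart between the QuantSeq groups and Jun did so less. Jund also stood apart, and its promoter was searched but is not printed. Sequences are from RefSeq on GRCm38.p6, which held a promoter for 9 of the 10 members (none for Fosl1). Each is the 250 bases before the RefSeq start, written 5′ to 3′ on the gene's strand. Capitals mark matches to TGACG (the core of a cAMP response element), to TGACATCA (the Jun-type AP-1 variant) and to TATAAA. Fos lies at chr12:85473640-85473889 (plus strand), Fosb at chr7:19310046-19310295 (minus), Jun at chr4:95052223-95052472 (minus) and Junb at chr8:84978749-84978998 (minus).
Fos: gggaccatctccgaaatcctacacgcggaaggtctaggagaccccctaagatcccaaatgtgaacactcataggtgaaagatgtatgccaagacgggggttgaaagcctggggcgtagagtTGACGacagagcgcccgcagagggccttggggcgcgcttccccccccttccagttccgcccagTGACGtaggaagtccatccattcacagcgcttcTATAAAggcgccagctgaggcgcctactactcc
Fosb: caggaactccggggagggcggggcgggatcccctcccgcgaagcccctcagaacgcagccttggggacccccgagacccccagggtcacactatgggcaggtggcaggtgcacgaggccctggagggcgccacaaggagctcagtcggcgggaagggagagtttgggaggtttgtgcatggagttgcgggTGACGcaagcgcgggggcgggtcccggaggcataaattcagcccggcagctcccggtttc
Jun: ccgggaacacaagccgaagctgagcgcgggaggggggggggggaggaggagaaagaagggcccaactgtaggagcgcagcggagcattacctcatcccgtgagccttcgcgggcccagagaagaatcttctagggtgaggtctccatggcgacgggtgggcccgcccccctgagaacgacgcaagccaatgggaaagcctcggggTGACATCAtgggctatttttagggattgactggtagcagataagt
Junb: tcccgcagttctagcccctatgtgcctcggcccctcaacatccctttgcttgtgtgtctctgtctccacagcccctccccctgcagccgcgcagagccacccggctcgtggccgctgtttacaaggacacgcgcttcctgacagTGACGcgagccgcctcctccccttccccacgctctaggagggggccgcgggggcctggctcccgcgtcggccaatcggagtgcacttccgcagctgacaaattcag
TGACG was searched on both strands from 250 bases before to 50 after the start, and 20.8% of 32851 promoters of that length held it. It was found in 5 of the 9 member promoters. In Fos it began 129 and 66 bases before the start, in Fosb 60, in Junb 106 and in Batf 98, and Atf3 held it on the other strand at 7. The full palindrome TGACGTCA, which contains TGACG, was in 1.79% of promoters and in 0 of 9 members. TGACATCA, searched on both strands, was in 3.62% of promoters and, among the members, in Jun. The AP-1 site TGANTCA was in 7.81% of promoters and in 0 of 9 members, and the serum response element (CArG box) was in 1.63% and in 0 of 9. TATAAA, searched on the gene's strand, was in 8.32% of promoters. It began 33 bases before the start of Fos and at base 1 of the RefSeq Junb transcript, just past the stretch printed. In GENCODE M21, used here for gene names, Junb starts further downstream, at chr8:84978718, so the match lies before that start. A match is a description of letters in these windows. Bases further upstream were not searched, so a count of 0 of 9 does not cover sites there.

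QuantSeq libraries held 1.83 to 4.44 M counts (M for 1000000, median 2.95 M) and RNA-seq libraries 36.05 to 107.4 M (median 67.6 M). Levels are CPM, counts per 1000000 counts of a library. QuantSeq libraries of a group varied widely, and RNA-seq replicates much less (biological coefficient of variation 1.26 and 0.0879). The sex of the mice is not labelled. Xist marked TH2 replicates 1 and 2, Bcl6KO and every TFH library of QuantSeq, and Ddx3y marked TH2 replicates 3 and 4, Il4KO and every TFH2 library. The 8 CD4 T cell markers were above 0 in every group of libraries. Of the 8 TFH markers, Cxcr5 and Ascl2 were at 0 in all TH2, Bcl6KO and Il4KO libraries, and the summed level was 148 to 379 CPM there, 829 to 2066 in TFH and 504 to 2201 in TFH2 libraries. In RNA-seq the 2 libraries from IL-4BacTg x OTII mice went against their labels in TFH markers. The library labelled TFH2 CXCR5hi held Cxcr5 at 1.11 CPM and Pdcd1, the gene of PD1, at 5.97 CPM, whereas the library labelled TH2 held 135 and 139. The 7 TH2 markers summed to 548 CPM in the library labelled TH2 and 563 CPM in the library labelled TFH2. In the library labelled TFH2, 3 of the 7 were at least 4-fold lower than in the other and 1 at least 4-fold higher. These 2 libraries are described apart from the other RNA-seq groups and enter no test.

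In QuantSeq, 4 of the 7 tested members were higher in TFH than in TH2 cells: Junb, Jund, Fosb and Jun. By edgeR's quasi-likelihood test with Benjamini-Hochberg adjustment over all 14383 genes, 5.17% of genes were called in this comparison, 2.42% as higher. Between TFH2 and TH2 cells 3 of 7 were called, all higher (Junb, Jund and Fosb), against 4.35% of all genes (2.03% higher). Both comparisons use the same TH2 libraries. TH2 cells differ from TFH cells in gate and in the IL-4BacTg transgene, and from TFH2 cells in gate. Cell type, gate and, for TFH, genotype cannot be told apart here. Fos, Fosb, Junb and Jund had no overlap between the 14 TFH and TFH2 libraries and the 8 TH2, Bcl6KO and Il4KO libraries, and 0.869% of genes were higher in that way. Against the TH2 libraries alone, 4 of 7 members did not overlap with TFH and 4 of 7 with TFH2, as 4.53% and 5.75% of genes did. In bulk libraries such as these, fewer cells with a transcript and less of it per cell cannot be told apart. DESeq2 called 5 members between TFH and TH2 and 4 between TFH2 and TH2, adding Fos to each. Of all 14383 genes it called 578 as higher and 541 as lower in the first comparison, and 541 and 557 in the second.

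Other cell types and signs of handling moved with this division. The summed level of 16 myeloid markers was 0 to 14.4 CPM in TH2, Bcl6KO and Il4KO libraries (12 of the 16 at 0, Lyz2 and Itgam among them), 78.0 to 241 in TFH (Itgam, Cd14 and S100a8 at 0) and 338 to 1654 in TFH2 libraries (0 of 16 at 0). For 12 B cell markers the ranges were 60.5 to 201, 197 to 299.97 and 329.8 to 1141 CPM. Ms4a1 and Blk were at 0 in all 3 sets. For 6 erythroid markers the ranges were 0 to 39.4, 40.0 to 343 and 424 to 1636 CPM. The 8 CD8 and NK cell markers summed to 87.5 to 919, 0 to 77.9 and 10.5 to 217 CPM, with Cd8a at 0 throughout. Gzma carried most of that sum in TH2 (436 ± 405 CPM, against 2.05 in TFH and 8.40 in TFH2) and was the only one of 5 tested markers called, as lower, in each comparison with TH2. The median over the 5 was -0.27 for TFH and 3.26 for TFH2. The CD4 T cell markers themselves summed to 2219.5 to 2761, 4045 to 5153 and 3271 to 4503 CPM. Of 23 tested genes known to respond to tissue handling and heat shock, 8 were higher and 2 lower in TFH than in TH2, and 7 higher and 1 lower in TFH2. Of all 14383 genes, 348 were higher and 395 lower in TFH, and 292 and 334 in TFH2. The part of other cell types and of handling in the results on AP-1 genes was not tested.

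**Figure D1:**
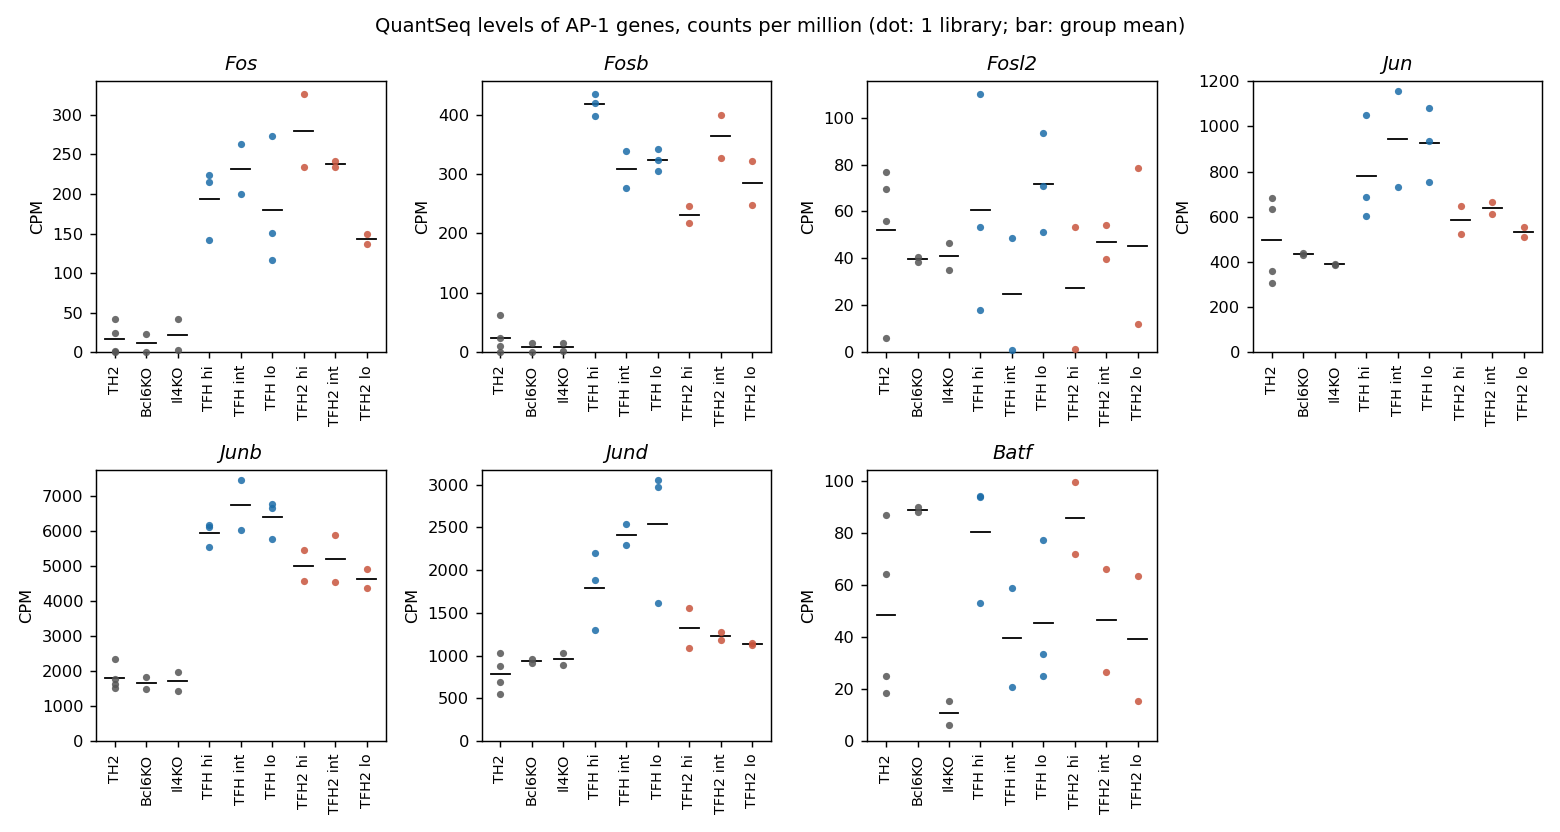
Levels of the 7 tested AP-1 genes in QuantSeq, in CPM, with 1 dot per library and a bar at the group mean, for TH2 (n = 4), Bcl6KO and Il4KO (n = 2 each), and TFH and TFH2 in the CXCR5 high, intermediate and low gates (n = 2 or 3). Fos, Fosb, Junb and Jund lie higher in all 14 TFH and TFH2 libraries than in the other 8, whereas Fosl2 and Batf overlap.

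Fosb, a partner of Jun proteins whose transcript is normally made only briefly after a stimulus, was scarce in TH2 cells. The 4 TH2 libraries held 0.780, 11.5, 24.2 and 62.2 CPM. The TFH libraries ran from 277 through a median of 341 to 435 CPM, and the TFH2 libraries from 218 through 285 to 400.0 CPM. Every TFH and TFH2 library was thus above every TH2 library. The difference was 3.82 ± 0.87 (log2, SE of the fit) for TFH against TH2, a 14.2-fold ratio (adjusted p 0.0202), and 3.51 ± 0.87 for TFH2 (11.4-fold, adjusted p 0.0347). The first call was lost without TH2 replicate 2 (0.0645), TH2 replicate 3 (0.0578) or the second TFH CXCR5int library (0.058). The second missed the threshold in 10 of 18 fits, with adjusted p from 2.39e-07 to 0.127. It was lost on leaving out TH2 replicate 2 (0.102), TH2 replicate 3 (0.0922) or any of the 6 TFH2 libraries (0.0641 to 0.0895). Against TH2 libraries carrying the same sex-linked transcript, the difference was 5.79 for TFH (replicates 1 and 2, adjusted p 0.0116) and 2.7 for TFH2 (replicates 3 and 4, adjusted p 2.39e-07).

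Fos, the founding Fos gene, separated in the same way and with more scatter. TH2 libraries held 1.17, 24.6, 42.4 and 0 CPM, the last of which allows up to 3 counts. TFH libraries ran from 117 through 208 to 274 CPM and TFH2 libraries from 137 through 234 to 326 CPM. The groups did not overlap, yet neither difference passed the test. It was 3.51 ± 1.18 for TFH against TH2 (adjusted p 0.116) and 3.54 ± 1.20 for TFH2 (adjusted p 0.138). DESeq2 gave adjusted p 0.00824 and 0.0108, and the fit with TH2 replicates 3 and 4 alone gave 5.01e-07 and 5.32e-07. Those replicates carry Ddx3y as TFH2 libraries do, whereas TFH libraries carry Xist. Against TH2 replicates 1 and 2, which carry Xist, the TFH difference did not pass. Over all fits, the TFH difference missed the threshold in 17 of 19 and the TFH2 difference in 16 of 18.

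Fosl2, a longer-lived Fos protein, did not separate the groups. TH2 libraries held 55.8, 76.9, 69.6 and 5.95 CPM, TFH libraries ran from 0.831 through 52.4 to 110.1 CPM, and TFH2 libraries from 1.21 through 46.6 to 78.5 CPM. Each group held at least 1 library close to 0. The differences from TH2 were -0.13 ± 0.74 for TFH and -0.49 ± 0.78 for TFH2. Fosl1 had 0 counts in all 22 libraries.

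Junb, a Jun protein that pairs with Fos and Batf proteins, held the most counts of the family in every QuantSeq library. TH2 libraries held 1619, 1513, 1779.5 and 2332 CPM. TFH libraries ran from 5551 through 6141 to 7452 CPM, and TFH2 libraries from 4363 through 4739 to 5896 CPM. The lowest TFH2 library was above the highest TH2 library. The difference from TH2 was 1.81 ± 0.14 for TFH (3.50-fold, adjusted p 2.34e-21) and 1.39 ± 0.14 for TFH2 (2.63-fold, adjusted p 2.89e-14). Both calls held in every alternative fit, with log2 differences of 1.63 to 2.02 and 1.22 to 1.61. Junb (chr8:84974484-84978718, minus strand) overlaps the end of Prdx2 on the opposite strand. Prdx2 was at 30.7 to 180 CPM, and whether counting used strand is not stated in these sources, so reads of the pair cannot be told apart.

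Jund, the Jun protein known for steady expression, also separated TFH from TH2. TH2 libraries held 546, 696, 879 and 1025 CPM. TFH libraries ran from 1299 through 2246 to 3051 CPM, and TFH2 libraries from 1093 through 1169 to 1554 CPM. TFH2 libraries lay between the other groups and close to the highest TH2 library. The difference from TH2 was 1.49 ± 0.18 for TFH (2.82-fold, adjusted p 4.5e-11) and held in every alternative fit. For TFH2 it was 0.59 ± 0.18 (1.50-fold, adjusted p 0.032). That call was lost without TH2 replicate 1 (adjusted p 0.192), TH2 replicate 2 (0.0974) or the second TFH2 CXCR5hi library (0.104), with the CXCR5int and CXCR5lo gates alone (0.149) and with only the groups compared (0.0752). Against TH2 replicates 3 and 4, which carry Ddx3y as TFH2 does, it was 0.32 (adjusted p 0.544). Against TH2 replicates 1 and 2, which carry Xist as TFH does, the TFH difference was 1.84 (adjusted p 6.62e-12).

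Jun, the founding Jun gene, varied within TH2 cells. The 4 libraries held 359, 308, 635 and 684 CPM, so replicates 3 and 4 lay above replicates 1 and 2. TFH libraries ran from 602 through 846 to 1158 CPM and overlapped TH2, and TFH2 libraries ran from 509 through 585 to 666 CPM. The difference was 0.82 ± 0.21 for TFH (1.76-fold, adjusted p 0.00511) and 0.18 ± 0.21 for TFH2 (adjusted p 0.793). The first was 1.40 against TH2 replicates 1 and 2 (adjusted p 5.98e-05) and 0.42 against replicates 3 and 4 (adjusted p 0.508). It was also lost without TH2 replicate 1 (0.0541) or replicate 2 (0.0721).

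Batf, the partner of Jun proteins beside Irf4, did not follow the division. TH2 libraries held 18.3, 87.0, 64.3 and 24.9 CPM, TFH libraries ran from 20.8 through 55.9 to 94.2 CPM and TFH2 libraries from 15.3 through 64.9 to 99.7 CPM. The differences from TH2 were 0.10 ± 0.57 for TFH and 0.10 ± 0.60 for TFH2. Batf3 had 8 counts in all, 6 in the first TFH CXCR5hi library and 2 in the first TFH2 CXCR5int library. Atf3 had 17, 0 and 6 counts in the TFH CXCR5hi libraries and 8, 9, 0, 7, 6 and 2 in the TFH2 libraries. Its only other count was 2 in TH2 replicate 1, so at this depth neither gene could be compared.

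**Figure D2:**
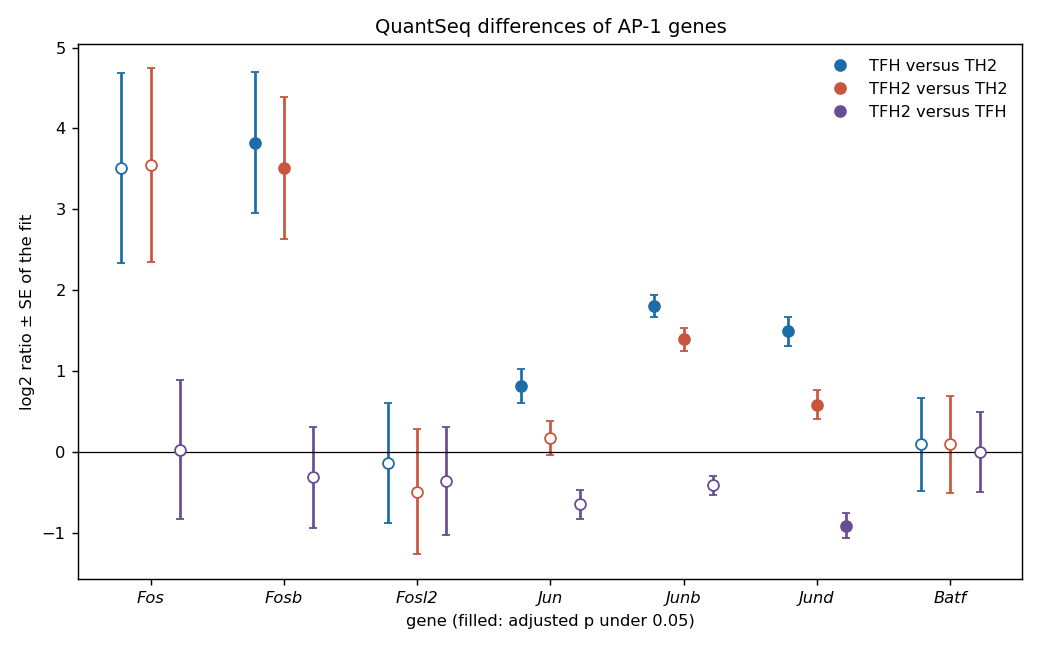
Differences of the 7 tested AP-1 genes in QuantSeq as log2 ratios with the standard error of the fit, for TFH against TH2, TFH2 against TH2 and TFH2 against TFH, with filled symbols at an adjusted p under 0.05. Junb and Jund have the narrowest errors, Fos and Fosb the largest ratios to TH2, and Jund is the 1 filled symbol between TFH2 and TFH, at -0.91.

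Between TFH2 and TFH cells Jund was the only called member, 1 of 7, where 0.647% of all genes were called (0.32% lower). It was lower in TFH2 by a log2 difference of -0.91 ± 0.15, a 1.88-fold ratio (adjusted p 3.71e-05), in every alternative fit run. The ranges of 1093 to 1554 CPM in TFH2 and 1299 to 3051 CPM in TFH overlapped. Jun was at -0.64 ± 0.18 (adjusted p 0.0619) and Junb at -0.41 ± 0.12 (adjusted p 0.0629). Jun missed the threshold in 13 of 20 fits and Junb in 15. Fos (0.03 ± 0.86), Fosb (-0.31 ± 0.63), Fosl2 (-0.35 ± 0.66) and Batf (0.00 ± 0.49) had wider errors. No member separated the groups without overlap, as 0.501% of genes did. All TFH libraries carried Xist and all TFH2 libraries Ddx3y, so genotype and sex cannot be told apart. TFH2 libraries also held more myeloid, B cell and erythroid transcripts (above), whose part was not tested.

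The CXCR5 gates were compared within each genotype. Per gate, Fosb was at 398, 419.9 and 435 CPM in TFH CXCR5hi, 277 and 339 in CXCR5int and 323, 305 and 342 in CXCR5lo libraries. In TFH2 the CXCR5hi libraries were the lowest, with 246 and 218 CPM in CXCR5hi, 400.0 and 327 in CXCR5int and 248 and 321 in CXCR5lo. Neither difference passed the test (0.36 ± 0.93 and -0.24 ± 1.14 for high minus low), and the difference between them was -0.60 ± 1.48. Jund was at 1889.7, 1299 and 2201 CPM in TFH CXCR5hi, 2543 and 2291 in CXCR5int and 3051, 2970.5 and 1617 in CXCR5lo. In TFH2 it was at 1093 and 1554, 1187 and 1280.4, and 1152 and 1126 CPM in the 3 gates. High minus low was -0.51 ± 0.22 in TFH (unadjusted p 0.0235, adjusted p 0.641) and 0.26 ± 0.27 in TFH2. The difference between these effects was 0.77 ± 0.35 (unadjusted p 0.0294, adjusted p 0.908).

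Batf means were 80.4, 39.8 and 45.3 CPM from the high to the low gate of TFH and 85.8, 46.5 and 39.3 CPM in TFH2. The individual libraries were 53.0, 94.1 and 94.2 CPM against 77.2, 33.6 and 25.1 CPM in TFH, which overlap, and 99.7 and 71.8 CPM against 63.4 and 15.3 CPM in TFH2, which do not. Fos in TFH2 was at 326 and 234 CPM in the high, 242 and 234 in the intermediate and 149 and 137 CPM in the low gate, with a high minus low difference of 1.02 ± 1.59. By edgeR's test 0 of 7 members were called between gates in TFH (0.139% of genes), in TFH2 (0.153%) and in the difference of the 2 effects (0.0139%). DESeq2 also called 0 of 7 in each. At an unadjusted p under 0.05 edgeR gave 1, 0 and 1 member, Jund each time, where 872, 628 and 787 of 14383 genes passed. Libraries of the high and low gate did not overlap for 1 of 7 members in TFH (Fosb), where 8.96% of all genes were like that. In TFH2 it was 3 of 7 (Fos, Fosb and Batf), where 27.8% of genes were.

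The Bcl6KO and Il4KO libraries were compared with the TH2 libraries. The TH2 mice carried IL-4BacTg, which is not named for either knockout, and the Bcl6KO mice carried Cre. Loss of Bcl6 or of Il4 cannot be told apart from these differences. Bcl6KO libraries held Fos at 23.7 and 0 CPM, Fosb at 16.0 and 0.977, Fosl2 at 40.7 and 38.6, Jun at 432 and 438, Junb at 1488 and 1842 and Jund at 916 and 965 CPM. Il4KO libraries held Fos at 2.87 and 41.5 CPM, Fosb at 2.30 and 15.0, Fosl2 at 46.5 and 35.3, Jun at 387 and 393, Junb at 1982 and 1428 and Jund at 1034 and 887 CPM. Each of these genes overlapped with TH2 in both knockouts. Batf was the exception, at 88.1 and 89.9 CPM in Bcl6KO, just above the highest TH2 library, and at 6.03 and 15.3 CPM in Il4KO, below the lowest. Its differences were 0.83 ± 0.78 and -2.12 ± 0.90 (unadjusted p 0.0201, adjusted p 0.921 for Il4KO). Non-overlap from TH2 was seen in 9.7% of genes for Bcl6KO and 9.69% for Il4KO.

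By edgeR 0 of 7 members were called in either knockout, where 0.0209% and 0.0695% of genes were called, and DESeq2 also called 0. At an unadjusted p under 0.05 the counts were 0 in Bcl6KO and 1 in Il4KO (Batf), where 837 and 768 of 14383 genes passed. With TH2 replicates 3 and 4 alone as the controls, Fosb was called in both, at -2.29 in Bcl6KO (adjusted p 0.00321) and -2.26 in Il4KO (adjusted p 0.00444). With TH2 replicates 1 and 2 alone it was 0.49 and 0.53, not called. Bcl6KO carries Xist as TH2 replicates 1 and 2 do, so for Bcl6KO the call is against libraries with the other sex-linked transcript. Il4KO carries Ddx3y as replicates 3 and 4 do. The Il4KO cells were sorted as CD4+ and the TH2 cells as CD4+hCD2+, so gate and genotype cannot be told apart there.

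Across the 9 QuantSeq groups, the order of group means put all 6 TFH and TFH2 groups above the TH2, Bcl6KO and Il4KO groups for Fos, Fosb, Junb and Jund. For Fos the order ran from TFH2 CXCR5hi (280.0 ± 65.4 CPM, SD) to TFH2 CXCR5lo (143 ± 8.84), then Il4KO (22.2 ± 27.3), TH2 (17.1 ± 20.4) and Bcl6KO (11.9 ± 16.8). For Junb it ran from TFH CXCR5int (6746) and TFH CXCR5lo (6405) through TFH2 CXCR5lo (4640) to TH2 (1811), Il4KO (1705) and Bcl6KO (1665 CPM). For Jund the top was TFH CXCR5lo (2546 ± 806 CPM) and the lowest group TH2 (786 ± 209 CPM). Neighbours in the orders of Fos and Junb overlapped in their ranges, except where TFH2 CXCR5lo met the next group below it. For Jund, ranges also did not overlap between TFH CXCR5int and TFH CXCR5hi and between TFH2 CXCR5int and TFH2 CXCR5lo.

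The make-up of the family's counts differed along the same division. QuantSeq counts 3' tags, so shares of counts are given without scaling by length. Together the 10 genes held 3236 ± 718 CPM in TH2 (SD, n = 4), 3189.7 ± 261 in Bcl6KO, 3138 ± 456 in Il4KO, 10093 ± 989.8 in TFH (n = 8) and 7387 ± 796 in TFH2 (n = 6). Jun genes made up most of this in every group, at 95.4% in TH2, 93.3% in TFH and 91.7% in TFH2. The share of the Fos genes was 2.98 ± 1.24% in TH2, 1.92% in Bcl6KO, 2.38% in Il4KO, 6.10 ± 1.12% in TFH and 7.54 ± 1.28% in TFH2, and the lowest TFH library (4.62%) lay above the highest TH2 library (4.16%). Of the counts of all 10 genes, Jun took 15.0 ± 3.02% in TH2 against 8.69 ± 1.94% in TFH and 7.94 ± 0.53% in TFH2. Jund took 24.1 ± 2.13% in TH2, 21.9 ± 4.64% in TFH and 16.7 ± 1.34% in TFH2, and Junb 56.3 ± 4.65%, 62.8 ± 4.50% and 67.0 ± 2.08%. These shares are a description and were not tested. The larger Fos share in TFH was not seen in RNA-seq. There, scaled by transcript length, it was 25.1% in TH2 and 22.6% in TFH CXCR5hi cells.

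**Figure D3:**
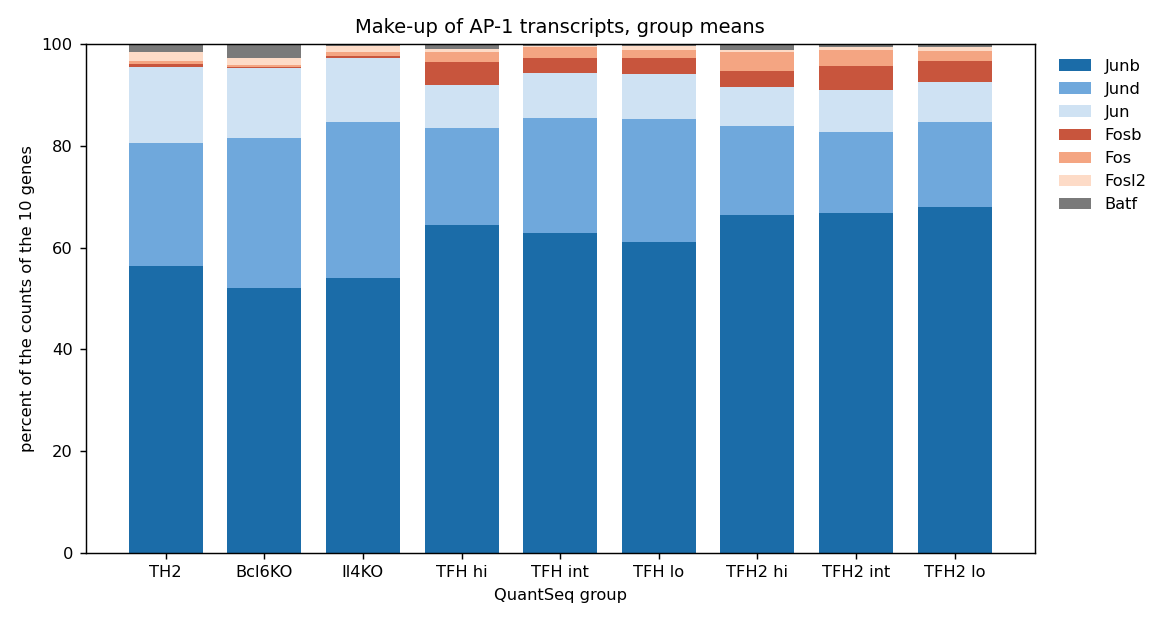
Stacked bars of the mean share (percent) that each of 7 AP-1 genes takes of the counts of all 10, for the 9 QuantSeq groups (n = 2 to 4 libraries each). Fosl1, Batf3 and Atf3 are too scarce to draw. Junb is the largest part in every group, and the Fos genes widen from 2.98% in TH2 cells to between 5.30% and 8.45% in the TFH and TFH2 gates.

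RNA-seq gave the naive state as a reference. Of the 10 members, 8 were called between TH2 and naive cells, 3 higher and 5 lower, where 65.8% of all genes were called (33.9% higher, 31.9% lower). Between TFH CXCR5hi and naive cells 8 were called, 7 higher and 1 lower, against 57.3% of genes (29.7% higher, 27.6% lower). Between TFH CXCR5hi and TH2 cells 9 were called, 8 higher and 1 lower, against 61.8% (30.8% higher, 31% lower). These shares of all genes are large. In the last comparison DESeq2 called 7, 6 higher and 1 lower, where it called 4099 of 17003 genes as higher and 4466 as lower. The 3 comparisons share their groups. Genotype differs in each, and TFH libraries carried Ddx3y whereas naive and TH2 libraries carried Xist, so that cell type, genotype and, for TFH, sex cannot be told apart.

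Fosb was at 555 and 525 CPM in naive, 351 and 378 in TH2 and 1770.1 and 1753 in TFH libraries. It was lower in TH2 than in naive cells (-0.55 ± 0.08, adjusted p 9.64e-05) and higher in TFH than in both, by 1.68 ± 0.08 over naive (adjusted p 1.69e-08) and 2.24 ± 0.08 over TH2 cells (4.72-fold, adjusted p 1.09e-09). Fos was at 1442 and 1414 CPM in naive, 744 and 809 in TH2 and 1395 and 1361 in TFH libraries. TH2 thus stood below the other groups (-0.86 ± 0.08 against naive, adjusted p 2.79e-06), and TFH exceeded TH2 by 0.79 ± 0.08 (1.73-fold, adjusted p 6.64e-06). TFH and naive cells differed by -0.07 ± 0.08 (adjusted p 0.469). The TH2 level of Fos here, 777 ± 45.9 CPM, was measured in IL-4BacTg mice without OTII and by another kit than the 17.1 CPM of QuantSeq.

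Fosl2 rose from 22.0 and 21.2 CPM in naive to 138 and 163 CPM in TH2 and 189 and 181 CPM in TFH libraries. The differences from naive were 2.82 ± 0.09 (7.06-fold, adjusted p 2.96e-10) and 3.08 ± 0.09 (8.45-fold, adjusted p 2.67e-10). TFH and TH2 differed by 0.26 ± 0.08 (adjusted p 0.0157), which was lost with DESeq2 (0.0542) and without TFH replicate 1 (0.198). Fosl1 was near 1 CPM in naive (0.818 and 1.04) and TH2 (1.12 and 1.20) and at 2.76 and 2.71 CPM in TFH libraries. It was higher in TFH than in naive cells by 1.53 ± 0.26 (adjusted p 0.000431) and than in TH2 by 1.20 ± 0.27 (adjusted p 0.00221, with DESeq2 0.0652).

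Junb was at 1548 and 1512 CPM in naive, 692 and 901 in TH2 and 3790.0 and 3707 in TFH libraries. TH2 was below naive by -0.93 ± 0.11 (adjusted p 1.82e-05). TFH was above naive by 1.27 ± 0.11 (adjusted p 2.23e-06) and above TH2 by 2.20 ± 0.11, a 4.60-fold ratio (adjusted p 1.84e-08). Jund was at 1345 and 1263 CPM in naive, 890.5 and 1204 in TH2 and 2322 and 2268 in TFH libraries. Its TFH level was above naive by 0.79 ± 0.12 (adjusted p 0.000166) and above TH2 by 1.10 ± 0.12 (adjusted p 1.09e-05). Between TH2 and naive it was -0.30 ± 0.12 (adjusted p 0.0415), lost without naive replicate 1 (0.217), naive replicate 2 (0.0838) or TH2 replicate 1 (0.0519), and with RLE scaling (0.0575).

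Jun differed in order from Junb, with its highest group level in naive cells at 1519 and 1507 CPM, against 800.5 and 982 in TH2 and 1251 and 1228 in TFH libraries. It was lower in TH2 than in naive cells (-0.75 ± 0.10, adjusted p 3.25e-05) and higher in TFH than in TH2 (0.44 ± 0.10, adjusted p 0.00187). Between TFH and naive it was -0.31 ± 0.10 (adjusted p 0.0165), a call lost on leaving out any of the 4 libraries (adjusted p 0.0647 to 0.107). An antisense gene overlaps Jun (Junos, 63.5 to 150.0 CPM in the 6 libraries) and another overlaps Jund (Gm11175, 325 to 861 CPM). Without the strand of counting, reads of such pairs cannot be told apart.

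Batf, which did not separate QuantSeq groups, was at 25.7 and 27.3 CPM in naive, 115 and 119 in TH2 and 80.6 and 77.4 in TFH libraries. It was higher than naive in TH2 (2.15 ± 0.07, 4.45-fold, adjusted p 5.43e-10) and in TFH (1.55 ± 0.07, 2.93-fold, adjusted p 1.4e-08). It was lower in TFH than in TH2 (-0.60 ± 0.07, adjusted p 1.79e-05), the only member called in that direction. Atf3 was at 0.661 and 0.786 CPM in naive, 3.04 and 2.89 in TH2 and 12.0 and 11.8 in TFH libraries. It was higher in TH2 than in naive (2.03 ± 0.17, adjusted p 1.06e-06) and in TFH than in TH2 (1.97 ± 0.13, 3.92-fold, adjusted p 1.71e-07). Batf3 had 4 counts in TH2 and 0 in naive and TFH libraries, where 0 allows up to 3 counts per library, so no fold is given.

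**Figure D4:**
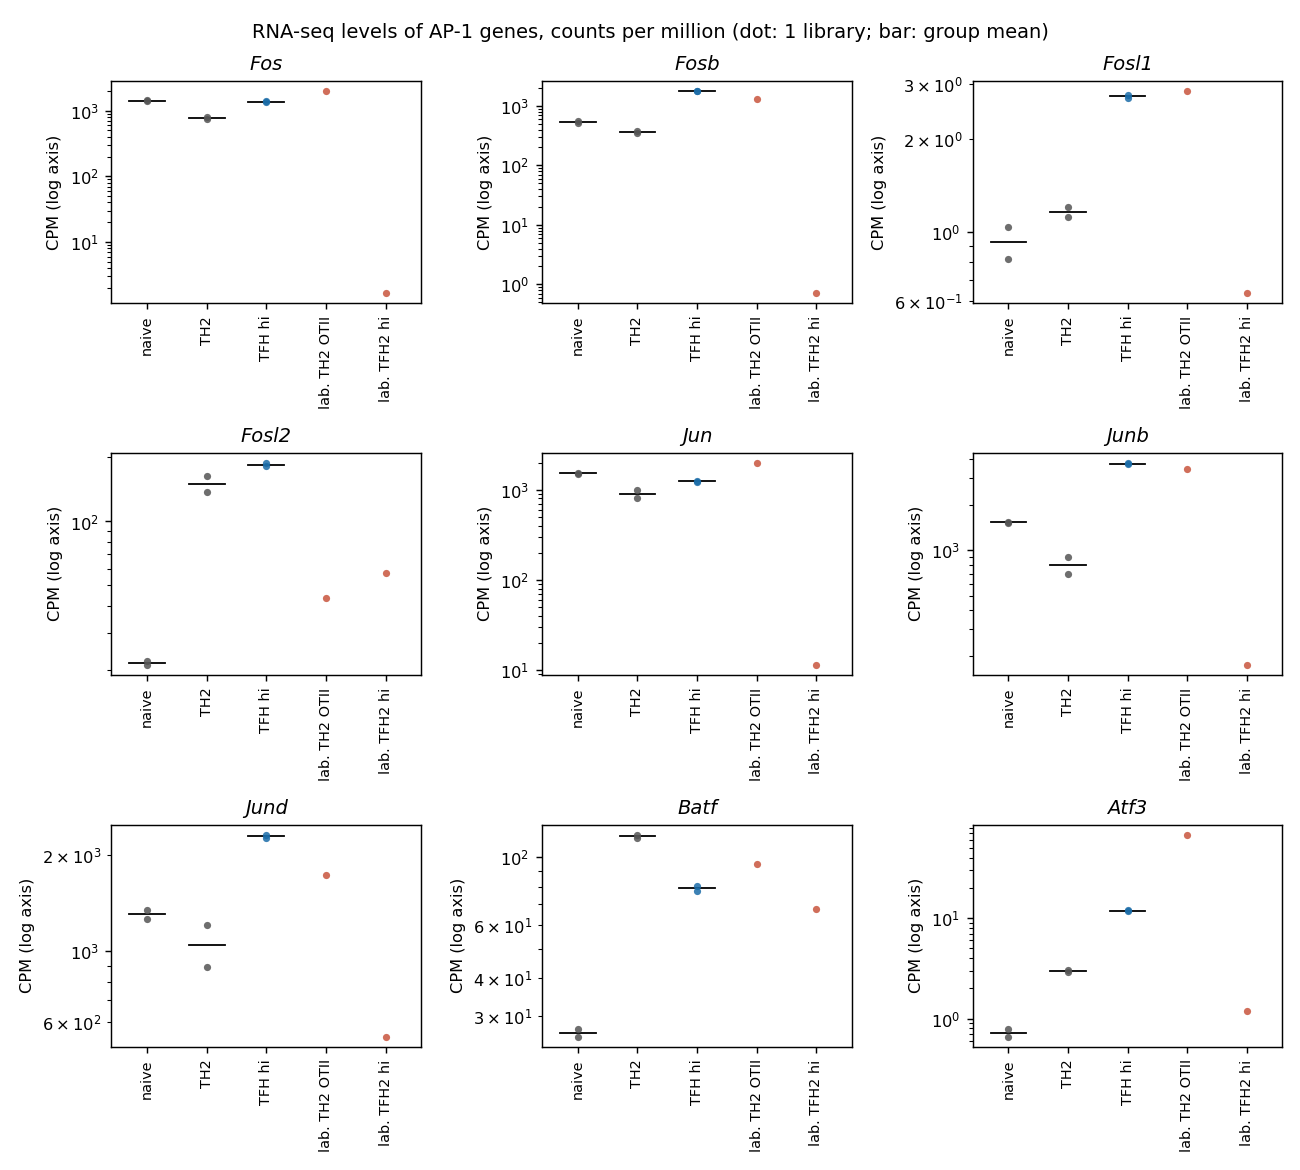
Levels of 9 AP-1 genes in RNA-seq in CPM on a log axis, with 1 dot per library and a bar at the mean of the 3 groups of 2 (naive, TH2 and TFH CXCR5hi), and the single libraries labelled TH2 (OTII) and TFH2 CXCR5hi. Fos, Fosb and Jun drop in the library labelled TFH2 to 1.67, 0.717 and 11.5 CPM, whereas Fosl2 and Batf do not leave the range of the other libraries.

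**Figure D5:**
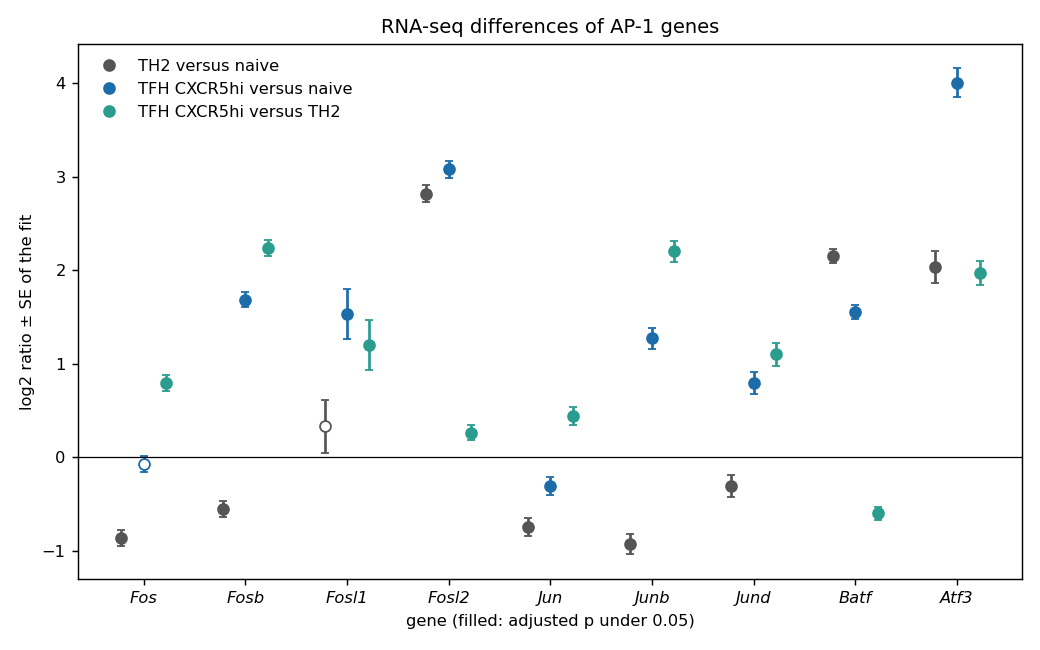
Differences of 9 AP-1 genes in RNA-seq as log2 ratios with the standard error of the fit, for TH2 against naive, TFH CXCR5hi against naive and TFH CXCR5hi against TH2 cells (n = 2 each), with filled symbols at an adjusted p under 0.05. Fosl2, Batf and Atf3 lie above 0 in both comparisons with naive cells, and Batf is the 1 gene below 0 between TFH and TH2, at -0.60.

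Levels of different members were compared per kilobase of the transcript counted, in RNA-seq only. In naive cells the order was Junb (846 CPM per kb), Jund (782), Fos (677), Jun (474), Fosb (143), Batf (27.8) and Fosl2 (3.30). In TH2 cells Jund led (628), followed by Junb (440), Fos (368), Jun (279), Batf (123), Fosb (96.3) and Fosl2 (23.1). In TFH cells Junb (2072) and Jund (1376) led, followed by Fos (654), Fosb (466), Jun (389), Batf (82.7) and Fosl2 (28.3). Fosb thus stood below Batf in TH2 and above Jun in TFH cells. The Fos genes made up 27.9%, 25.1% and 22.6% of the family's level per kb in naive, TH2 and TFH cells, and Batf with its relatives 0.954%, 6.39% and 1.75%.

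Heat shock transcripts also differed between these RNA-seq groups. Hspa1a was at 2501 and 2503 CPM in naive, 3.39 and 5.37 in TH2 and 269 and 265 in TFH libraries. Of 24 tested handling and heat shock genes, 5 were higher and 15 lower in TH2 than in naive, and 14 higher and 8 lower in TFH than in TH2 (medians -0.51 and 0.54, against 0.00 and -0.01 over all genes). Of all genes, 33.9% were higher and 31.9% lower in the first comparison, and 30.8% and 31% in the second. The part of the handling and heat shock genes in the AP-1 differences was not tested. Summed myeloid markers were at 30.8 in both naive libraries, 22.6 to 23.1 in TH2 and 23.4 to 25.7 CPM in TFH libraries, and B cell markers at 372 to 392, 175 to 182 and 299 to 300.1 CPM. CD8 and NK cell markers summed to 984 to 1246 CPM in TH2 libraries against 45.3 to 45.9 in naive and 67.7 to 73.0 in TFH libraries, and Gzma made up nearly all of the TH2 sum (1093 ± 184 CPM). Of 7 tested markers 2 were higher and 4 lower in TH2 than in naive (median -0.35), where 33.9% and 31.9% of all genes were. The part of these cell type markers was not tested either.

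The 2 single RNA-seq libraries from IL-4BacTg x OTII mice differed widely for most members. The library labelled TH2 held Fos at 1986 CPM (95% Poisson interval 1964 to 2009, counting error only) and the library labelled TFH2 CXCR5hi at 1.67 (1.03 to 2.56). Fosb was at 1322 and 0.717 CPM (interval 0.328 to 1.36), Jun at 1981 and 11.5, Junb at 3468 and 175, Jund at 1732 and 538, and Atf3 at 67.9 and 1.19 CPM. The ratios were 1188-fold for Fos, 1845-fold for Fosb, 173-fold for Jun, 19.9-fold for Junb, 56.8-fold for Atf3 and 3.22-fold for Jund. Batf (95.3 and 67.8 CPM) and Fosl2 (43.6 and 57.4 CPM) differed least.

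In the library labelled TFH2, 7 of 10 members were at least 4-fold lower than in the library labelled TH2 and 0 at least 4-fold higher, where 6.82% and 3.16% of all genes were. It was the lowest of all 8 RNA-seq libraries for 6 members (Fos, Fosb, Fosl1, Jun, Junb and Jund), as for 16.5% of genes. The library labelled TH2 was the highest of 8 for 5 members (Fos, Fosl1, Jun, Batf3 and Atf3), as for 21% of genes. The median log2 difference over the members was -4.19, against -0.01 over all genes. With 1 library each there is no replicate check. These 2 libraries also differed in handling and heat shock genes (10 of 24 at least 4-fold lower, Hspa1a at 229.8 and 0.717 CPM). Summed myeloid (338 and 38.9 CPM), B cell (2005 and 859.9) and erythroid markers (208 and 11.9 CPM) differed as well, and their part was not tested.

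The other genes of the pathway were described from lists chosen with earlier results of these data known. Partners of AP-1 at composite sites (NFAT, Irf, Rel, Runx and Ets genes) had 2 of 13 higher and 1 lower in TFH than in TH2 in QuantSeq, with a median of 1.03 against -0.10 over all genes, of which 2.42% were higher. The 3 were Nfatc1, an NFAT factor induced on activation (569 ± 137 against 61.1 ± 32.5 CPM, log2 difference 3.17, adjusted p 0.00146), the NF-kB subunit Rel (3.63, adjusted p 3.19e-06) and Runx3 (-1.47, adjusted p 0.000505). In TFH2 4 of 13 were higher and 1 lower (median 0.65 against -0.14), with Nfatc1 at 2.87 (adjusted p 0.00352), Rel at 3.02 (adjusted p 0.000128), Irf8 at 3.85 (adjusted p 0.00939) and Runx3 at -1.97 (adjusted p 5.6e-06). In RNA-seq 11 of 13 were higher and 2 lower in TFH than in TH2 (median 0.74 against -0.01, with 30.8% and 31% of all genes), Rel at 3.17 (adjusted p 3.67e-11) and Nfatc1 at 3.63 (adjusted p 1.31e-08) among them.

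Among kinases and serum response inputs, which carry the signal to Fos and Jun genes, 2 of 23 were higher and 0 lower in TFH than in TH2 (median 0.30), where 2.42% of all genes were higher. They were Malt1 (1.61, adjusted p 0.00207) and Bcl10 (1.61, adjusted p 0.0094), which act together below the T cell receptor. In TFH2 Malt1 alone was called (1.75, adjusted p 0.00104, median of the list 0.16). In RNA-seq 15 of 23 were higher and 4 lower in TFH than in TH2 (median 0.37), Malt1 (2.25, adjusted p 6.35e-10) and Bcl10 (1.64, adjusted p 3.98e-09) being the smallest p, where 30.8% of all genes were higher and 31% lower. Between TH2 and naive 7 were higher and 10 lower (median -0.04), near the 33.9% and 31.9% of all genes, and Map3k8, a kinase of the ERK and JNK routes, was at 3.06 (adjusted p 1.28e-10).

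Of 21 other bZIP factors, 3 were higher and 2 lower in TFH than in TH2 (median -0.02), where 5.17% of all genes were called (2.42% higher). Atf4 was at 1.42 (adjusted p 3.25e-05), and the small Maf protein Maff at 4.30 (adjusted p 0.03). Bach2, a repressor known to compete with AP-1, was lower, at 15.4 ± 16.5 against 74.3 ± 33.9 CPM (-3.81, adjusted p 0.000589). In TFH2 2 were higher and 1 lower (median -0.17), with Bach2 at 5.43 ± 13.2 CPM (adjusted p 8.6e-08), Maf at 1.23 (adjusted p 5.69e-05) and Atf4 at 1.32 (adjusted p 0.000229). In RNA-seq Bach2 was lower than naive in TH2 (-3.05, adjusted p 5.74e-11) and in TFH (-3.09, adjusted p 8.52e-11). Maff again differed between TFH and TH2 (4.19, adjusted p 1.09e-11), one of 14 of 22 factors that were higher, with 6 lower (median 0.42), where 30.8% and 31% of all genes were.

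Genes known as AP-1 targets in activated T cells were split. In QuantSeq 5 of 18 were higher and 1 lower in TFH than in TH2 (median 0.00), and 3 higher and 1 lower in TFH2 (median 2.14), where 2.42% and 2.03% of all genes were higher. Pdcd1, Icos and Il21 of this list are also TFH markers, and TFH and TFH2 cells were sorted by PD1, the product of Pdcd1. Part of these counts may thus follow from the sort. Cd40lg, the helper ligand for B cells, was at 224 ± 97.3 CPM in TFH and 239 ± 38.4 in TFH2 against 43.0 ± 9.85 in TH2 (2.36, adjusted p 8.53e-08, and 2.42, adjusted p 7.18e-08). Il2ra, the high-affinity chain of the IL-2 receptor, was at 1.45 ± 4.11 and 1.20 ± 2.94 CPM against 35.6 ± 16.6 (adjusted p 0.00139 and 0.0044). Il21 was at 74.0 ± 53.3 and 81.6 ± 46.1 CPM against 0 counts in TH2. In RNA-seq 9 of 20 were higher and 8 lower between TFH and TH2 (median -0.19), where 30.8% and 31% of all genes were. Il2ra was again lower in TFH (2.68 against 378 CPM, adjusted p 1.01e-11). Between TFH2 and TFH 0 genes were called by edgeR in the partner, kinase, bZIP and target lists. In the handling list Klf6 was lower (-0.85, adjusted p 0.000809).

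Over the 22 QuantSeq libraries, the genes whose log2(CPM + 1) followed the most abundant member of each branch were named by Pearson's r, as a description. For Fosb they were Rapgef1 (0.94), Endod1 (0.94) and Gadd45b (0.93), and for Junb Dtx1 (0.95), H2-Q2 (0.95) and Endod1 (0.95). For Batf they were Cstb (0.78), Rab11fip2 (0.78) and Wapl (0.73). These libraries share their groups and depths, and the division between TH2 and TFH libraries enters each value.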

How the data were processed

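Expression was measured in 22 QuantSeq (Lexogen 3') and 8 RNA-seq (NEB Next Ultra) libraries, sequenced on a HiSeq1500 per the labels. The submitters' processing notes list featureCounts 1.6.0, STAR 2.7.0c, Bowtie 0.12.2 and the builds mm9, mm10 and GRCm38.p6, without saying which of them served which kit. The authors deposited whole, unnormalized counts, per gene for QuantSeq and per transcript for RNA-seq. Gene names came from GENCODE M21 on GRCm38. They named 55394 of 55573 QuantSeq identifiers and 82916 of 95883 transcripts, and the transcripts left out held 14.7% of RNA-seq counts. An RNA-seq gene stands for the transcript of it that was counted most over all libraries, and CPM in RNA-seq are per 1000000 counts of these transcripts. Groups follow the labels, and no covariate or pairing could be used.

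Each kit was fitted apart in edgeR 4.0.16 (R 4.3.3) with TMM factors, filterByExpr (minimum count 10, minimum total 15) and a robust quasi-likelihood fit. The 2-sided tests gave 11 comparisons, adjusted by the Benjamini-Hochberg method over the 14383 QuantSeq or 17003 RNA-seq genes tested, with calls at an adjusted p below 0.05. The QuantSeq fit had 13 and the RNA-seq fit 3 residual degrees of freedom. Levels are means ± SD over libraries and differences log2 ratios ± SE. Intervals and the limit of 3 counts for a count of 0 cover counting error only. The scripts were tested on simulated data. DESeq2 1.42.0, RLE factors, no filter, only the groups compared, transcript sums, subsets of TH2 libraries or gates and each library left out were the alternatives. The design allowed for a length-scaled RNA-seq unit, but the files hold counts, so the count test was used. All 10 members are named, with at most 4 called genes of each other list, by smallest adjusted p. The AP-1 members and the lists were chosen with earlier results of these data known.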

Additional observations from a re-analysis of the deposited data

Results flagged for a closer look

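Atf3 in the QuantSeq TH2 libraries was marked because 1 library lay far from the other 3. TH2 replicate 1 held 0.780 CPM, which is 2 counts, and the others held 0 counts. Of 8 tests of this kind over groups of 4 libraries this was the only one marked. The rule is set to mark about 1 in 20 by chance for normally distributed values. That rate does not hold here, since 1 library with counts beside 3 at 0 is always marked. The value is within the limit of 3 counts that a count of 0 allows.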

How the results depend on the processing

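No paired analysis was possible because the labels give no replicate numbers. No AP-1 gene reversed a call. Of 414 values of AP-1 genes recomputed under other settings 394 kept their side of the threshold, 11 newly passed and 9 were lost. With each library left out 561 kept it, 11 newly passed and 24 were lost, where a lone sample is assumed to vary like the other groups. The cause was not tested. The number of AP-1 genes called moved from 3 to 1 between TFH2 and TH2 with only the groups compared, from 1 to 3 between TFH2 and TFH with no filter and to 2 with only the groups compared, and from 0 to 1 in each knockout with TH2 replicates 3 and 4 alone. With each library left out it ranged from 2 to 4 (TFH against TH2), 1 to 3 (TFH2 against TH2), 1 to 3 (TFH2 against TFH), 7 to 8 (TH2 against naive), 7 to 7 (TFH against naive) and 8 to 10 (TFH against TH2, RNA-seq), and was 0 to 0 for gates and knockouts.

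Counts over all genes moved more. DESeq2 called 1119 between TFH and TH2 (743 by edgeR), 1098 between TFH2 and TH2 (626), 279 between TFH2 and TFH (93), 83 and 127 between gates in TFH and TFH2 (20 and 22), 35 for the difference of gates (2), and 124 for Bcl6KO (3, split 2 higher and 1 lower, against 17 and 107) and 91 for Il4KO (10). With no filter the last 6 of these were 142, 33, 36, 4, 17 and 38. With only the groups compared the gates gave 7 and 0, Bcl6KO 1 and Il4KO 0. TH2 replicates 1 and 2 alone gave 63 and 74 for the knockouts, and replicates 3 and 4 alone 50 and 33. CXCR5int and CXCR5lo gates alone, an alternative chosen after seeing the data, gave 41 between TFH2 and TFH, and RLE factors moved that split from 47 higher and 46 lower to 56 and 34. With each library left out the ranges were 566 to 738, 553 to 731, 80 to 214, 13 to 29, 21 to 111, 1 to 43, 7 to 56 and 10 to 31 for these 8 comparisons, and 9607 to 11337, 7741 to 8061 and 8774 to 10828 in RNA-seq.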
